A study of Zea mays with 12 samples.

Results

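In a hybrid, a transcript whose 2 parental alleles contribute independently is made at the average of both parents. A level outside the range of both parents, called transgressive, is a departure from that additive pattern. Maize embryos were searched here for such levels. A member of this group is a probe set for which all 6 hybrid arrays lay above all 6 inbred arrays, or all 6 lay below them. Each probe set on the array reads 1 transcript, or by its design more than 1, through several short probes, whose brightness is combined into a signal. Each array was first scaled to a median of 225 signal units over its 17621 probe sets other than controls, and members needed a mean of at least 100 over the 12 arrays, which 10913 probe sets had. Of these, 78 had every hybrid array below every inbred array (0.715%) and 2 had every hybrid array above (0.0183%). One of those 2, from the basal transfer layer gene betl3, belongs to a set of 5 genes (glb2, pep7, betl3, CesA-4 and CesA-9) left out by name, so the group held 78 probe sets below and 1 above, 79 in all. The signals themselves chose the members, so the contrast between hybrids and inbreds is described without a test.

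The study measured embryo RNA at 19 days after pollination in field-grown maize of 4 genotypes, with 3 arrays for each. These were 2 inbreds, B73 and Mo17, and their reciprocal hybrids, B73xMo17 and Mo17xB73. Written with the seed parent first, as is usual, the crosses hold the same nuclear genomes and differ in which line bore the kernels. Per the labels, the samples of a biological replicate were taken on 1 date, and the 3 replicates on different dates. A maize embryo grows inside the kernel against the endosperm, the starchy storage tissue, so dissected embryos can carry some of it. Of 17 embryo markers listed, 10 were found by name in the annotation. All 10 had a mean above 100, among them the globulin gene glb1 (10743 in B73 and 13564 in Mo17, mean signal). Of 42 endosperm markers listed, 24 were found, and 21 of these did too, among them the zein storage protein gene z1D_2 (8375 and 8358). The summed signal of the endosperm markers ran from 53644 to 77068 over the inbred arrays and from 66329 to 80993 over the hybrid arrays, and 19 of the 24 had the higher mean log2 signal in the hybrids. That of the embryo markers ran from 35699 to 48134 and from 41184 to 51315, with 7 of the 10 higher in the hybrids. The part of these sums in the members' levels was not tested. No embryo or endosperm marker that was found was a member, betl3 being left out by name. Fewer cells of a type and less RNA per cell cannot be told apart in such samples.

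Most of the group was a set of small differences, with the hybrids the lower side. The hybrid mean of the 78 probe sets below was between 70.1% and 93.3% of the inbred mean, with a median of 84.9%. In 18 of them it was under 80% and in 66 under 90%. On the log2 scale the difference ran from -0.51 to -0.10 with a median of -0.24. Over all 10913 probe sets the median difference was -0.07, and in 73.1% of them the mean log2 signal was lower in the hybrids, so relative to that general shift the median member stood at -0.16. The mean signals of these members ran from 133 to 4986 with a median of 1049, against a median of 587 over all 10913. In 4 of them the mean was between 100 and 225, and the rule's minimum of 100 bounds the lower end.

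**Figure D1:**
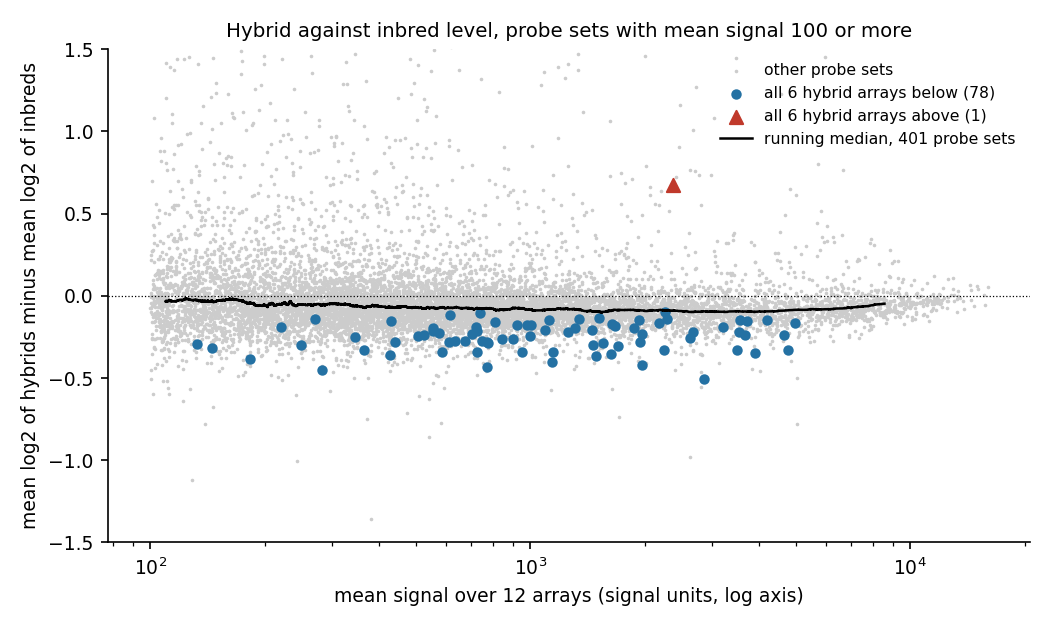
Mean log2 signal of the 6 hybrid arrays minus that of the 6 inbred arrays (vertical) against the mean signal over 12 arrays in signal units (horizontal, log axis), for probe sets with a mean of 100 or more. Blue points are the 78 members below, the red triangle is the member above, the black line is a running median, and 147 points lie outside the plotted range of 1.5 either way; the line runs under 0, and the members below lie under it.

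CDPK had the widest separation of any named member. It encodes a calcium-dependent protein kinase, an enzyme that binds calcium itself and passes the signal on by phosphorylation. Its probe set gave 1708, 1665 and 1798 signal units in B73, 1619, 1621 and 1671 in Mo17, 1333, 1297 and 1280 in B73xMo17, and 1243, 1393 and 1272 in Mo17xB73. The lowest inbred array stood 1.16 times above the highest hybrid array, and the 2 crosses had the same mean (1303 ± 27.0 and 1303 ± 79.6, SD, n = 3). The hybrid mean was 77.6% of the inbred mean, or -0.37 on the log2 scale and -0.29 relative to the general shift. The 2 other probe sets of the gene did not show this: they stood at -0.08 and -0.07, close to the general shift, and their hybrid and inbred arrays overlapped. One of them differed between the inbreds by -0.71 ± 0.10 (B73 minus Mo17, SE, limma adjusted p = 5.8e-05), while the member probe set differed by 0.07 ± 0.06 (limma adjusted p = 0.42).

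Of 14 calcium signalling and kinase genes with a mean of 100 or more, each taken by its brightest probe set, 0 were separated in either direction, against 0.715% below and 0.0183% above over all 10913 probe sets. A list of 14 genes is too short to read a share from. CDPK is one of the 14 and entered by its brightest probe set, which is not the member. Their median hybrid minus inbred difference was -0.09 against -0.07 over all 10913 probe sets. Among them CDPK2 stood at -0.14 (1439 in the inbreds and 1304 in the hybrids, mean signal) and the calmodulin gene CaM1 at -0.09 (3463 and 3233).

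The chromatin gene nfd110, also named ssrp1, encodes a subunit of FACT, the complex that loosens and restores nucleosomes in the path of RNA polymerase. It measured 1894, 1918 and 1859 in the B73 arrays, 2149, 2239 and 1986 in those of Mo17, 1754, 1672 and 1777 in B73xMo17, and 1736, 1739 and 1837 in Mo17xB73. The hybrid arrays all lay lower, by 1.01 times at the closest pair, and the hybrid mean was 87.3% of the inbred mean. B73 (1890 ± 29.7, SD, n = 3) was the lower inbred and Mo17 (2125 ± 128) the higher. The crosses lay nearer to B73, which the rule fixes for the lower inbred of any member below. The inbreds differed by -0.17 ± 0.06 (B73 minus Mo17, SE, limma adjusted p = 0.057). The gene of the other FACT subunit, SPT16 (gtc102 in the annotation), had a mean of 1955 in the inbreds and 1792 in the hybrids, a difference of -0.13, with overlapping arrays. Of 58 chromatin genes with a mean of 100 or more, nfd110 was the 1 separated, against 0.715% below over all 10913 probe sets, and the median difference was -0.09 against -0.07. With 1 gene separated, this list too is too short to read a share from.

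Both remaining named genes encode proteases. LON2 encodes a Lon protease, an ATP-driven enzyme that degrades proteins inside organelles. It measured 606, 571 and 584 in the B73 arrays, 670, 668 and 630 in those of Mo17, 556, 562 and 479 in B73xMo17, and 539, 542 and 508 in Mo17xB73. The highest hybrid array and the lowest inbred array differed by 1.02 times, and the hybrid mean was 85.4% of the inbred mean. see2a encodes a legumain-like cysteine protease of the vacuole, named for its rise in ageing leaves. It was the dimmest annotated member, with 137, 161 and 171 in the B73 arrays, 160, 165 and 176 in those of Mo17, 130, 127 and 124 in B73xMo17, and 137, 134 and 126 in Mo17xB73. Its separation was barely a separation: B73 replicate 1 and Mo17xB73 replicate 1 both rounded to 137, with a ratio of 1.006. The related gene see2b, at 130 in the inbreds and 109 in the hybrids, differed by -0.22 with overlapping arrays. Of 11 protease and protease inhibitor genes with a mean of 100 or more, chosen by names that did not include LON2, see2a was the 1 separated, against 0.715% below over all 10913 probe sets, and the list's median difference was -0.19 against -0.07. A list of 11 genes is too short to read a share from.

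The last annotated probe set below, that of LOC542170, has no gene name here. It gave 1144, 1201 and 1156 in the B73 arrays, 1233, 1164 and 1123 in those of Mo17, 1035, 1100 and 1100 in B73xMo17, and 896, 965 and 990 in Mo17xB73. All of its hybrid arrays were lower, with 1.02 times between the closest ones, and Mo17xB73 was the lower cross in every pair of arrays. That difference between the crosses was 0.18 on the log2 scale and was not called (limma adjusted p = 0.34).

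**Figure D2:**
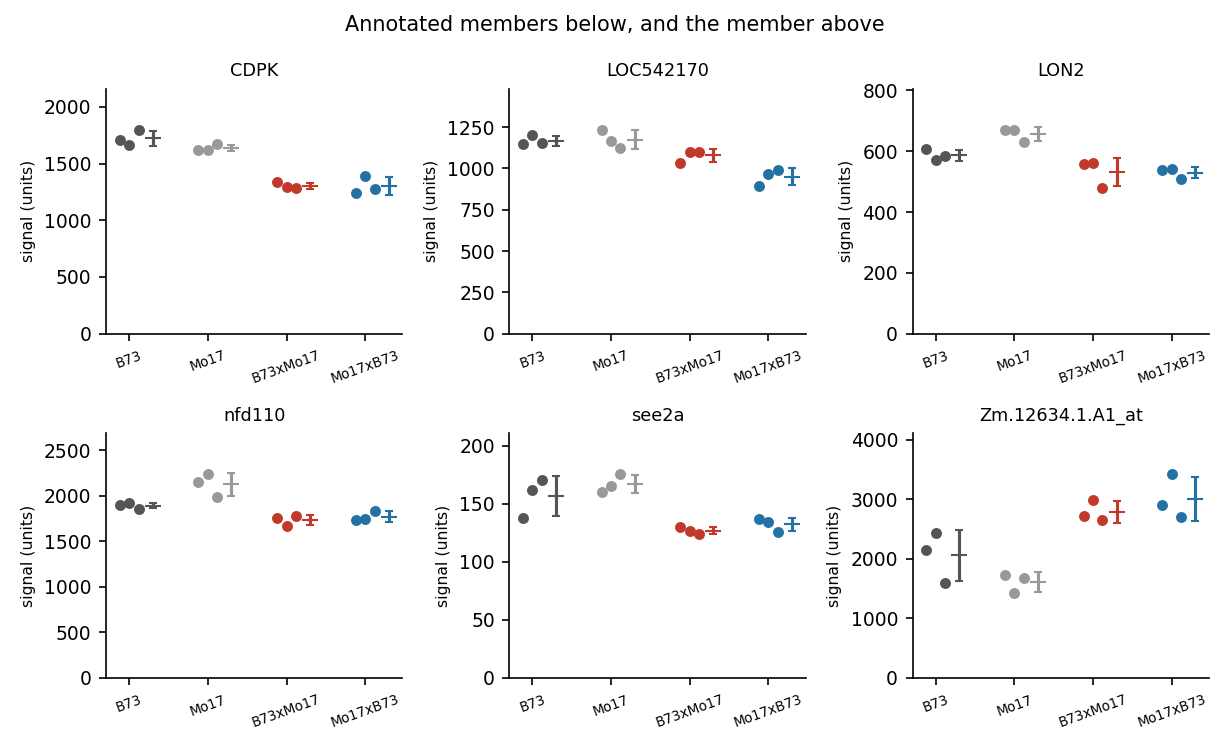
Signal in each array (points, 3 per group) with the group mean and SD (dash and bar) for the 5 annotated members below and for Zm.12634.1.A1_at, the member above; vertical axes start at 0 and are in signal units. In the first 5 panels every hybrid point lies under every inbred point, with see2a at a ratio of 1.006 between the closest ones, and in the last panel every hybrid point lies over every inbred point.

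The other 73 probe sets below are unnamed here. That is the usual state of this array, whose annotation gave 1 gene for 8.24% of its probe sets and for 6.33% of the members. The widest separation of all was that of Zm.14051.1.S1_a_at, which measured 3264, 3068 and 3115 in the B73 arrays, 3625, 3192 and 3995 in those of Mo17, 2432, 2423 and 2316 in B73xMo17, and 2157, 2570 and 2306 in Mo17xB73. Its hybrid mean was 70.1% of the inbred mean, the lowest share among the members, and 1.19 times lay between the closest arrays. Other probe sets whose IDs carry the same cluster number, with a mean of 100 or more, stood at -0.13 and 0.20 on the log2 scale. Their hybrid and inbred arrays overlapped.

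Zm.1105.1.A1_at was the brightest of the 5 unnamed probe sets with the widest margins. The inbreds stood at 4479 ± 111 (B73) and 4276 ± 75.5 (Mo17), and the hybrids at 3438 ± 293 (B73xMo17) and 3437 ± 157 (Mo17xB73; mean signal ± SD, n = 3). At this probe set the 2 inbreds differed by 0.07 ± 0.07 on the log2 scale and the 2 crosses by -0.00. Its 4 groups thus fell into 2 levels, with the hybrids at 78.5% of the inbreds. Zm.4774.1.A1_at had the same shape at a lower level, from 1019 to 1171 over the inbred arrays and from 791 to 923 over the hybrid arrays, or 79.0%. Zm.6083.1.A1_at ran from 2070 to 2571 in the inbreds and from 1444 to 1886 in the hybrids, with Mo17xB73 replicate 1 the lowest array, and its hybrid mean was 74.9% of the inbred mean. Zm.16587.1.A1_at was dim, from 138 to 159 in the inbreds and from 115 to 126 in the hybrids, or 81.5%. The 4 members whose closest arrays were at least 1.1 times apart were CDPK, Zm.14051.1.S1_a_at, Zm.1105.1.A1_at and Zm.4774.1.A1_at. Brighter probe sets with the cluster number of Zm.1105.1.A1_at did not show its separation and stood at -0.09 and -0.14 on the log2 scale. A brighter probe set with the cluster number of Zm.6083.1.A1_at stood at -0.18. The hybrid and inbred arrays of these brighter probe sets overlapped.

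**Figure D3:**
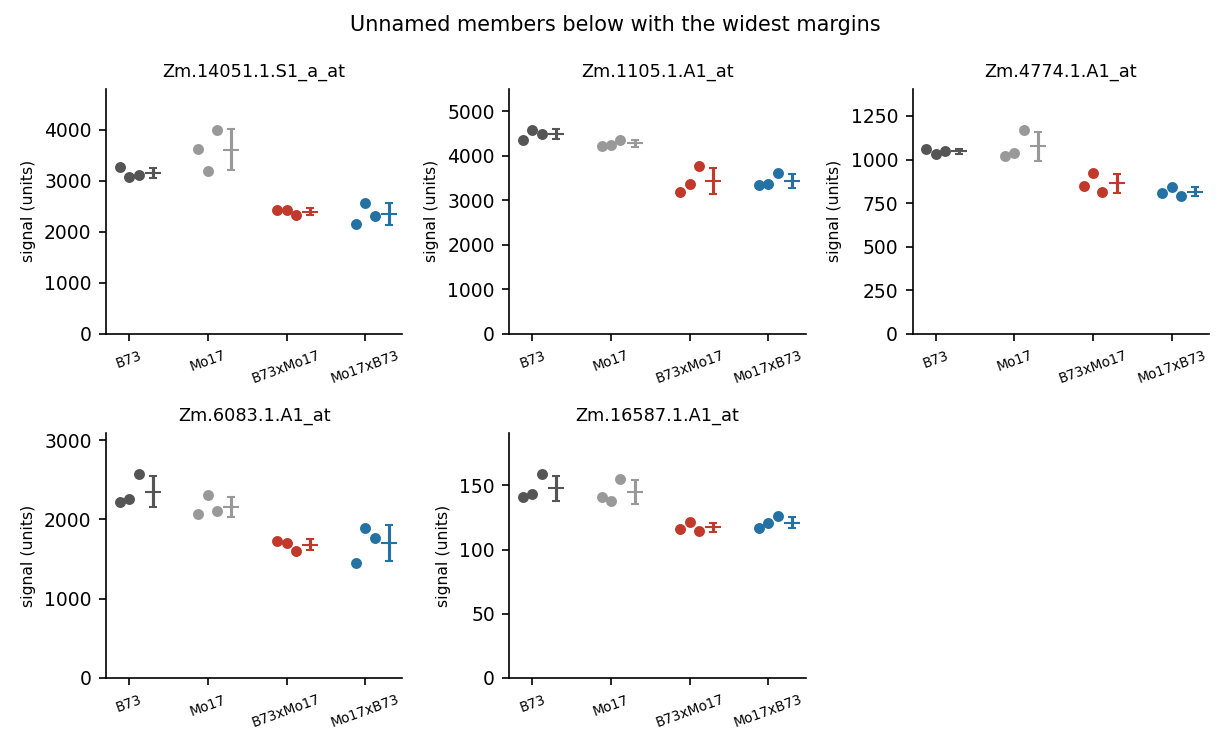
Signal in each array (points, 3 per group) with the group mean and SD (dash and bar) for the 5 unnamed members below with the widest margins; vertical axes start at 0 and are in signal units. The hybrid points lie under the inbred points in each panel, with a hybrid mean between 70.1% and 81.5% of the inbred mean.

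The group above held 1 probe set, Zm.12634.1.A1_at, unnamed here. It measured 2156, 2440 and 1597 in the B73 arrays, 1735, 1427 and 1683 in those of Mo17, 2715, 2997 and 2656 in B73xMo17, and 2904, 3428 and 2706 in Mo17xB73. Its hybrid mean was 158% of the inbred mean (0.68 on the log2 scale), a wider difference than that of any probe set below, with 1.09 times between the closest arrays. The crosses (2789 ± 182 and 3013 ± 373, SD, n = 3) were not called apart (-0.11, limma adjusted p = 0.86), nor were the inbreds (2064 ± 429 and 1615 ± 165, a difference of 0.34 ± 0.14 with limma adjusted p = 0.068, or 0.045 with the replicate number as a block). Of the 9 other probe sets whose IDs carry the same cluster number, 8 had a mean of 100 or more. None of those 8 followed it: they stood between -0.14 and -0.08, and their hybrid and inbred arrays overlapped. Whether all probe sets of a cluster number measure 1 gene was not tested.

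Among the members below, 28 had other probe sets of the same cluster number with a mean of 100 or more, 61 different ones in all. Of the 61, 51 had a lower mean log2 signal in the hybrids and 39 lay under the general shift, with a median difference of -0.10. Only Zm.14513.4.S1_at and Zm.14513.4.S1_x_at, 2 probe sets of 1 transcript sequence chosen for mention after their values were seen, were both members, at 79.5% and 85.0% of the inbred mean. By design type, the share separated below was 0.760% of the standard probe sets (70 members), 0.393% of those marked as covering several transcripts of a gene (4 members) and 0.870% of those marked as open to cross-hybridization (4 members).

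The margins of most members were as narrow as the limit itself. In 43 of the 78 the closest inbred and hybrid arrays were less than 2% apart, and the median ratio was 1.02. Just inside the limit were Zm.18084.1.A1_at (a ratio of 1.0009) and Zm.13825.1.S1_at (1.0011). Just outside was Zm.822.1.S1_at (1.0000 after rounding, under 1 before it). In all, 86 further probe sets had a ratio between 0.98 and 1 on this side, and 2 on the other, Zm.18312.1.S1_at (0.999) and Zm.9580.1.A1_at (0.990).

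The choice of scaling set how many probe sets fell on each side. After scaling on the array median, the 75th percentile of the signals was 736 to 794 over the hybrid arrays and 773 to 834 over the inbred arrays, while the 25th percentile was 25.4 to 33.3 and 24.1 to 29.0. Bright probe sets thus stood lower and dim ones higher in the hybrids: the median log2 difference was -0.09 between 1000 and 4000 signal units and 0.03 below a mean of 100. The share separated below was largest in that bright class, 1.33% of 2712 probe sets, against 0.201% of 1991 between 100 and 225 units. Between 225 and 1000 units it was 0.642% of 5297. At 4000 units or more it was lower again, 0.438% of 913. The summed signal of the bacterial spike-in controls ran from 16766 to 22487 over the hybrid arrays and from 20096 to 24954 over the inbred arrays. The ratio of 3' to 5' signal, a sign of RNA quality, overlapped between hybrids and inbreds for actin, GAPDH, cyclophilin and EF1A. Hybrids first, it was narrow for cyclophilin (1.15 to 1.26 and 1.13 to 1.21) and EF1A (1.02 to 1.25 and 0.973 to 1.19). It varied widely for GAPDH (0.324 to 8.95 and 0.198 to 4.09) and actin (0.211 to 1.14 and 0.0876 to 1.16). The part of these array differences in the members' levels was not tested.

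With quantile normalization, which gives every array the same distribution, the median difference over the 10913 probe sets was -0.008, and 7 probe sets lay above and 25 below, without the genes left out by name (0.0733% and 0.229% when those are counted too). With each array scaled on the median of the probe sets with a mean of 100 or more, a setting chosen after seeing the data, 8 lay above and 18 below (0.0824% and 0.165% when the 5 named genes are counted too). With the values as deposited 1 lay above and 0 below. The quantile list below shared 22 probe sets with the members, 28.2% of the 78 and 88.0% of the 25, and all 18 of the other list were members; these lists come from the same arrays. CDPK was below under both, at -0.27 and -0.29, see2a under quantile normalization only, and LON2, nfd110 and LOC542170 under neither. Zm.12634.1.A1_at was above under both. The nitrilase gene NIT2, between 268 and 291 in the inbreds and between 284 and 316 in the hybrids after median scaling, was above under both and was no member.

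**Figure D4:**
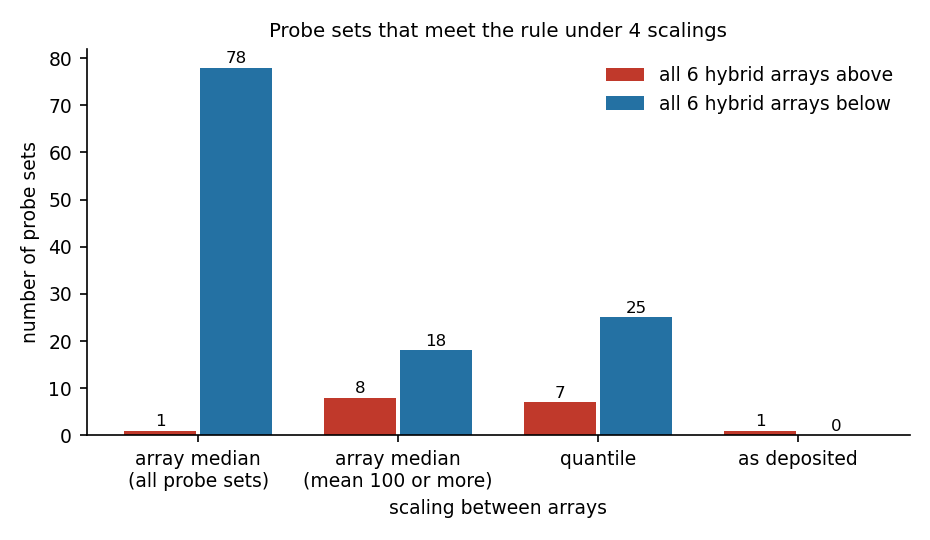
Number of probe sets that meet the rule (vertical) under 4 scalings between arrays (horizontal), separately for hybrids above (red) and below (blue). The counts run from 1 above and 78 below with the array median to 8 and 18 with the median of brighter probe sets, 7 and 25 with quantile normalization, and 1 and 0 as deposited.

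The rule was repeated on 2 collection dates at a time and the third date, which had no part in the choice, was then read. With date 1 left out, 376 probe sets were chosen below, and 174 of them (46.3%) had both hybrid arrays under both inbred arrays on date 1, against 19.7% of all probe sets with a mean of 100 or more. With date 2 left out it was 165 of 510 (32.4%, against 13.4%), and with date 3 left out 129 of 271 (47.6%, against 26.6%). The opposite side was taken by 6, 14 and 4 of them. Above, 8 of 28 (28.6%, against 4.39%), 8 of 37 (21.6%, against 2.69%) and 5 of 18 (27.8%, against 3.49%) stayed on their side, while 3, 2 and 2 took the opposite one. Quantile normalization gave 42.4%, 22.3% and 34.9% below, against 14.1%, 8.88% and 13.0%. These lists overlap one another and differ from the members. The rule favours probe sets with close inbreds and a small spread, and the shares over all probe sets are not matched for these. The part of this in the higher shares was not tested.

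**Figure D5:**
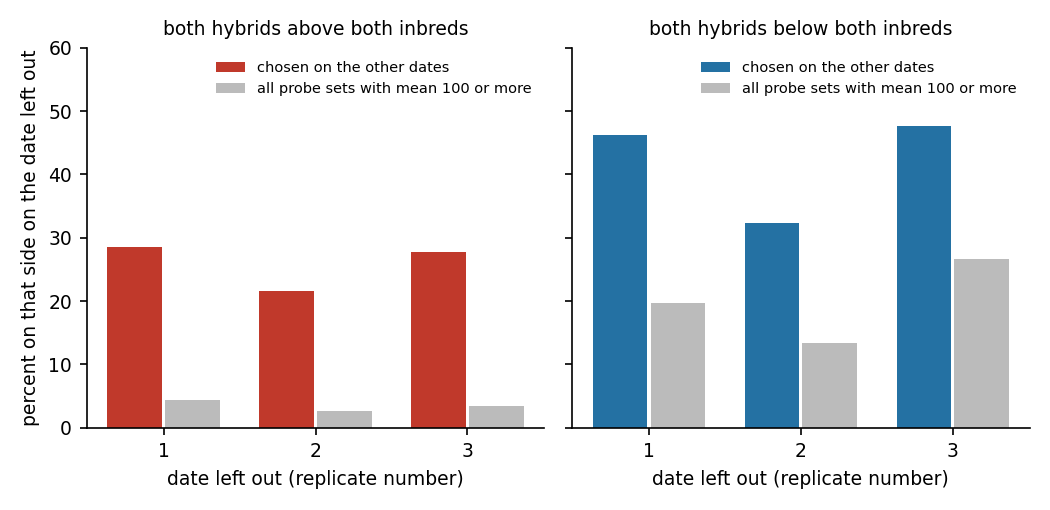
Percent of probe sets with both hybrid arrays above (left) or below (right) both inbred arrays on the collection date left out of the choice, for the probe sets chosen on the other dates (coloured) and for all probe sets with a mean of 100 or more (grey). The coloured bars stand at 21.6% to 28.6% above and 32.4% to 47.6% below, over grey bars of 2.69% to 4.39% and 13.4% to 26.6%. The grey bars are not matched for inbred difference or spread, which the rule bears on.

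Within each date the median difference of the 78 members below was -0.26, -0.19 and -0.25 (dates 1, 2 and 3), against -0.06, -0.05 and -0.09 over all probe sets with a mean of 100 or more. Single arrays decided many memberships. B73 replicate 1 was the lowest inbred array in 24 of the 78, and B73xMo17 replicate 2 and Mo17xB73 replicate 2 were the highest hybrid array in 20 and 19. Without Mo17xB73 replicate 2 the rule gave 191 below, without B73 replicate 1 it gave 181, without B73xMo17 replicate 2 it gave 143 and without B73 replicate 3 it gave 138. A rule on 11 arrays is easier to meet than one on 12.

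The inbreds themselves hardly differed at these probe sets. limma, a linear model with spread shared across probe sets, was fitted to all 17621 and called 3 of the 78 between B73 and Mo17 (3.85%), 0 higher in B73 and 3 higher in Mo17, against 48.0% of all probe sets with a mean of 100 or more (19.2% and 28.8%) and 36.3% of all probe sets (15.2% and 21.0%). The median size of the log2 difference was 0.07 in the members and 0.28 over the 10913. The rule favours this, since inbreds far apart leave little room outside them, so the low share is no independent result. The 3 were Zm.3436.1.A1_at (-0.26 ± 0.07, B73 minus Mo17, SE, limma adjusted p = 0.008), Zm.4817.1.S1_at (-0.22 ± 0.08, adjusted p = 0.034) and Zm.18084.1.A1_at (-0.24 ± 0.08, adjusted p = 0.043), named after their values were seen. Zm.3436.1.A1_at kept its call without any single array, with adjusted p up to 0.04. The others lost theirs without some arrays (up to 0.13 and 0.18) with quantile normalization (0.12 and 0.062) and without the intensity trend (0.069 and 0.067), and all 3 lost it with the values as deposited. With the replicate number as a block the count was 6 of the 79 members, 1 of them the probe set above.

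The reciprocal hybrids were not called apart at any of the 79 by limma, where the smallest adjusted p was 0.34. An unadjusted limma p below 0.05 was found for 3 of the 78 below (3.85%), against 12.9% of all probe sets with a mean of 100 or more. Over all probe sets with a mean of 100 or more 1.13% were called (0.476% higher in B73xMo17 and 0.651% lower), and over all probe sets 0.772% (0.318% and 0.454%). The rule bounds the spread over the hybrid arrays, so the absence of calls is no independent result. The differences between B73xMo17 and Mo17xB73 ran from -0.21 to 0.24 over the 78 below, and B73xMo17 was the lower cross in 26 of them (46.4% of all probe sets with a mean of 100 or more). In B73 against Mo17, B73 was the lower line in 52 of the 78 (61.8% of all probe sets with a mean of 100 or more). The spread within groups was also small: the median SD of the log2 signal was 0.08 in the members and 0.13 over the 10913, and 73 of the 78 were under the latter, which the rule favours as well.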

How the data were processed

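Probe set signals from 12 arrays (4 genotypes, 3 replicates each) were used as deposited: linear intensity values, made with MAS5 per the submitters' processing notes, with no normalization between arrays recorded in the sources used here. Deposited array medians ran from 192.1 to 313.8. The 113 control probe sets were left out. Each array was scaled to a median of 225, the scale of the rule, and used for levels and tests alike. limma 3.58.1 (R 4.3.3) was fitted to log2 signals over 4 group means with an intensity trend, two-sided, with Benjamini-Hochberg adjustment over 17621 probe sets and a threshold of 0.05. The fit was tested on simulated data, and its precision is limited by the number of arrays. Members and gene lists were chosen with earlier results of these data known. Names came from the platform annotation, updated through RefSeq synonyms of Zm-B73-REFERENCE-NAM-5.0, and 16 list matches that were plainly other genes were removed. The rule for named genes took every member with a gene name, the 5 unnamed members with the widest margins in each direction, and the 2 probe sets nearest the limit on either side of it. One probe set that this rule takes is not reported here. Same-numbered arrays share a collection date per the labels, and their deviations from the group means correlated between -0.06 and 0.32 (median 0.11, 18 pairs). For arrays of different number and group the range was -0.31 to 0.2 (median -0.09, 36 pairs). The main fit took no account of the date, and the fit with the replicate number as a block was the alternative.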

Additional observations from a re-analysis of the deposited data

How the results depend on the processing

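The count above was 1 and became 7 with quantile normalization or with no minimum signal, 2 with a minimum of 50, 0 with a margin of 1.1 times, and 8 with scaling on brighter probe sets (added after seeing the data). Without single arrays it was 1 to 10. The count below was 78 and became 25, 0 (values as deposited), 4 (margin of 1.1) and 18, and 89 to 191 without single arrays.

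Of the 79 members limma called 3 between the inbreds, 8 with quantile normalization, 0 as deposited, 1 without the intensity trend, 5 when only brighter probe sets were fitted, 6 with the replicate block and 1 to 5 without single arrays. Over all probe sets 6389 were called, 2963 as deposited and 5469 to 6364 without single arrays. Between the crosses 136 were called, 42 as deposited, 12 without the trend and 45 to 134 without single arrays, with 0 members under every alternative.

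The median hybrid minus inbred difference of the named members became -0.19 with scaling on brighter probe sets, and ran from -0.30 to -0.25 without single arrays. The share of probe sets that kept their side above on the date left out is given here against that of all probe sets with the same minimum. It became 38.1% against 8.69% (date 1) and 32.1% against 8.60% (date 3) with quantile normalization. With a minimum of 200 it became 34.8% against 4.13% (date 1). As deposited it was 7.14% against 0.502%, 100% (1 of 1) against 22.9%, and 14.3% against 0.675%. Below it became 22.3% against 8.88% (date 2) and 34.9% against 13.0% (date 3) with quantile normalization. With scaling on brighter probe sets it was 18.6% against 6.35% and 33.3% against 12.3% on these dates. As deposited it was 0.416% against 0.128% and 25% (1 of 4) against 30.9%, and date 1 left no probe set to read. As deposited, with date 2 left out, 2 of the 481 chosen below kept their side and 110 took the opposite one. On that date 2504 of all 10923 probe sets (22.9%) also had both hybrid arrays above. The deposited medians of date 2 were 313.8 in B73xMo17, 222.9 in Mo17xB73, 218.1 in B73 and 200.5 in Mo17. The cause of the shifts between settings was not tested.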
